A study of Mus musculus with 4 samples.

Results

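The expression of 10 genes that carry or control ion transport across the sperm membrane was examined in testes of adult Azin2 KO mice and WT mice. The genes were chosen by name, as Catsper1, Catsper2, Catsper3, Catsper4, Catsperb, Catsperg1, Catsperd, Kcnu1, Slc9c1 and Adcy10, and not by a threshold on their values. They are 10 of the 18820 genes that had a value of their own on the arrays. The Affymetrix Mouse Gene 1.1 ST array was used on total RNA of whole testes. It reads each gene through a set of short probes (a probe set). There were 4 arrays, 2 for KO testes and 2 for WT testes, and on each of them the RNA of 3 mice was pooled. A β-Geo reporter cassette interrupts the Azin2 gene in all cells of the KO mice, which were bred on a mixed background of C57BL/6, and the WT mice carry the intact gene. No treatment is named for either genotype. Values are normalized log2 signals, in which a difference of 1 is a doubling. They were compared between genotypes with limma, which pools the estimate of spread over all probe sets, with Benjamini-Hochberg adjustment over 23099 probe sets. The p-values rest on the spread between 2 pools of each genotype (2 residual degrees of freedom), drawn toward that of all probe sets (2.96 prior degrees of freedom). For a gene whose pools were nearly level, they reflect mostly the spread of the other probe sets. The number of arrays limits the precision.

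CatSper is the calcium channel of the sperm tail. It opens when the cell interior becomes alkaline and is needed for hyperactivated swimming in the female tract. Its pore is built by the products of Catsper1 to Catsper4, around which auxiliary subunits are assembled. Kcnu1 encodes SLO3, the potassium channel that hyperpolarizes sperm, Slc9c1 encodes the sperm sodium/proton exchanger, and Adcy10 encodes the soluble adenylyl cyclase, which is activated by bicarbonate and makes the cAMP that starts vigorous motility. In the testis these genes are transcribed in male germ cells, mostly at or after meiosis, and the proteins act later in mature sperm.

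Azin2, the targeted gene, averaged 7.25 ± 0.158 in KO testes and 10.08 ± 0.115 in WT testes (log2 signal, SD, n = 2 pools each), a log2 difference of -2.83 (SE 0.0995, adjusted p = 0.025 from limma). The markers of later germ cells were bright on every array. The 7 measured spermatid markers lay between 10.84 and 12.40 and the 6 spermatocyte markers between 9.64 and 11.50. The 6 spermatogonia markers were lower, between 6.11 and 8.95, and the 2 measured epididymis markers lay between 4.50 and 5.31. The medians of all genes lay between 7.02 and 7.05 on the 4 arrays. In whole testis, fewer cells of a type and less RNA per cell cannot be told apart.

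None of the 10 genes rose or fell in KO testes at an adjusted p under 0.05. Their log2 differences, KO minus WT, ran from -0.12 for Catsperg1, on the probe set of its own, to 0.17 for Catsper4. That is a range from 0.919-fold to 1.12-fold. The median was 0.02, against 0.01 over all genes, and the median size of the difference was 0.03, against 0.05 over all genes. Of the 10, 6 (60%) lay above 0, against 56.6% of all genes. The adjusted p from limma was 1 for each of the 10, and 1 of the 18820 genes passed (0.00531%), which was Azin2 itself. At a fold of 1.5 with an unadjusted p under 0.05, the thresholds stated for these arrays, 0 of the 10 genes passed, beside 18 of all genes (0.0956%). At an unadjusted p under 0.05 alone, 1 of the 10 passed, Catsper4, beside 743 of all genes (3.95%).

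The intervals were narrow enough to bound these differences in array signal, which need not equal differences in transcript amount. The 95% confidence interval of every one of the 10 lay within a fold of 1.5 in both directions, as it did for 98% of all genes. Over the 10 genes the lowest bound was 0.834-fold, for Catsperg1 on the probe set of its own, and the highest was 1.25-fold, for Catsper4. The standard errors ranged from 0.0477 to 0.0837 on the log2 scale. The plot of the differences with their intervals shows that 9 of the 10 intervals include 0.

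**Figure D1:**
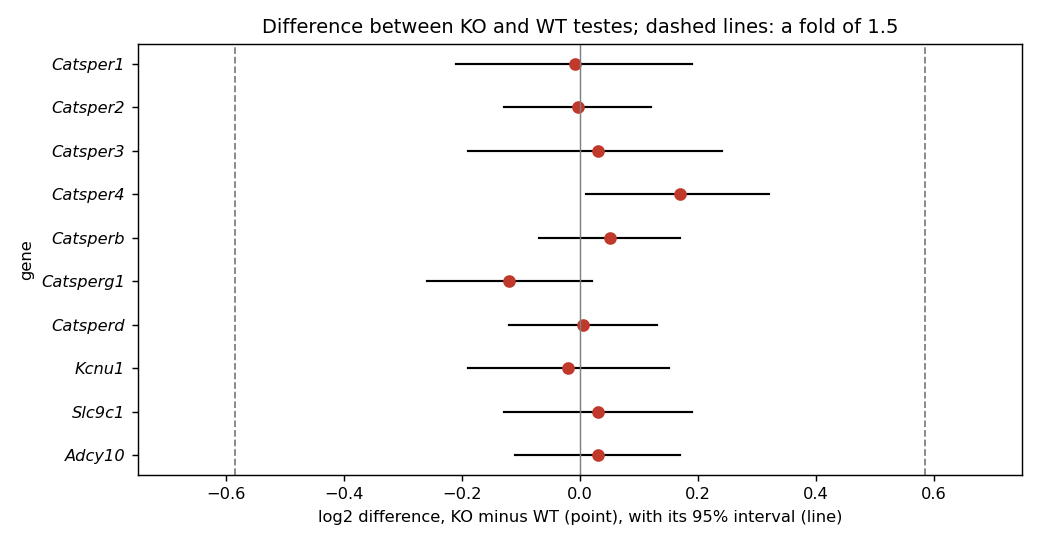
Log2 difference between KO and WT testes (x axis) for each of the 10 genes (y axis). Points are the difference of the means of 2 pools each, horizontal lines the 95% confidence interval from limma, and dashed lines a fold of 1.5. All intervals lie between the dashed lines, and that of Catsper4, from 0.01 to 0.32, is the one that leaves out 0.

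The sequences around the transcription start are shown for the genes with the largest difference in each direction, Catsper4 (above 0) and Catsperg1 (below 0). RefSeq promoter windows of 300 bases on GRCm38.p6, from 250 bases before the start to 50 after it, were matched for 8 of the 10 genes (10 windows), and Catsper1 and Kcnu1 had none. Both strands were searched for 4 short motifs, and matches on either strand are in capitals. The motifs were the CCAAT box (ATTGG), the cAMP response element core (TGACG), the MYB core (TAACNG) and the X-box core (GTTNCC). N stands for any base. The Catsper4 window is chr4:134227334-134227633 and the first of the 2 Catsperg1 windows is chr7:29213984-29214283, both on the minus strand.
Catsper4: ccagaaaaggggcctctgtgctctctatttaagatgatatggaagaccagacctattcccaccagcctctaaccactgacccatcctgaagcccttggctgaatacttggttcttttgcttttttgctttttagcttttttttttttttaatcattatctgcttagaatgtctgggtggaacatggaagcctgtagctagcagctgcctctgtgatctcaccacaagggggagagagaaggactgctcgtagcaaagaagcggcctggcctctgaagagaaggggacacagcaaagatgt
Catsperg1: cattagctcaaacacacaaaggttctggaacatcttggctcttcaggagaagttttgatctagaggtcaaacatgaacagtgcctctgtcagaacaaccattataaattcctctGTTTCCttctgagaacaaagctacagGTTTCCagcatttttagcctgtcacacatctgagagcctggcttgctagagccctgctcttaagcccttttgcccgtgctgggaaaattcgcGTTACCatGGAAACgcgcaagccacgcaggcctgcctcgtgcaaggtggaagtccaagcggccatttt
The Catsper4 window held no match to the 4 motifs, and the first window of Catsperg1 held 4 matches to the X-box core, of which the last 2 face each other across 2 bases. The second Catsperg1 window, at another start (chr7:29210876-29211175, minus strand, not shown), held 1 X-box core and no other match. X-box cores were found in 4 of the 10 windows (40%) and in 45.3% of all 32851 promoter windows.

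The CCAAT box was found in 4 of the 10 windows (40%), those of Catsper2, Catsperb, Slc9c1 and Adcy10, and in 37.4% of all windows. These are shown with 12 bases on either side, named by their positions from the start (negative before it).
Catsper2, -85 to -81, chr2:121413861-121413889, minus strand: tggcagccgccgATTGGctgcgtcacgca
Catsper2, -35 to -31, chr2:121413811-121413839, minus strand: tggtaactgccgATTGGcgggcgcgcggg
Catsperb, -45 to -41, chr12:101404616-101404644, plus strand: tagtagcagctgATTGGctcttaccaaag
Slc9c1, -53 to -49, chr16:45535201-45535229, plus strand: tgtttctataagCCAATcaaattaggagt
Adcy10, -77 to -73, chr1:165485094-165485122, plus strand: cggtgatgccagCCAATcagaagcacagc
In Slc9c1 and Adcy10 the letters read CCAAT on the gene's own strand. In Catsper2 and Catsperb that strand reads ATTGG, so CCAAT is on the opposite strand. The cAMP response element core was found in 2 of the 10 windows (20%), those of Catsper2 and Catsperd, and in 20.8% of all windows, and the MYB core in 4 (40%) and in 23.3% of all windows. The MYB core and the X-box core share bases in the Catsper2 window. The first Catsperd window held 3 cAMP response element cores.
Catsperd, -160 to -156, chr17:56626875-56626903, plus strand: gaacagccatacTGACGgcgcaccgcact
Catsperd, -141 to -137, chr17:56626894-56626922, plus strand: gcaccgcacttaCGTCAtctctgctcgcc
Catsperd, -106 to -102, chr17:56626929-56626957, plus strand: ttgcgcacgtgaTGACGctcgcgtgcttc
These matches describe the letters in the windows and were not tested as sites.

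All 10 genes were bright in the testis. Their log2 signals lay between 9.54 and 11.07, above the upper quartile of all genes (9.04 to 9.06) on every array. The lowest place of any of them was the 81.1 percentile of all genes on an array, reached by Catsper1, and the highest was the 96.1 percentile, reached by Kcnu1. Since each gene is read by different probes, the order of the 10 genes by signal is not an order of their transcripts. Each of the 10 had 1 probe set of its own.

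**Figure D2:**
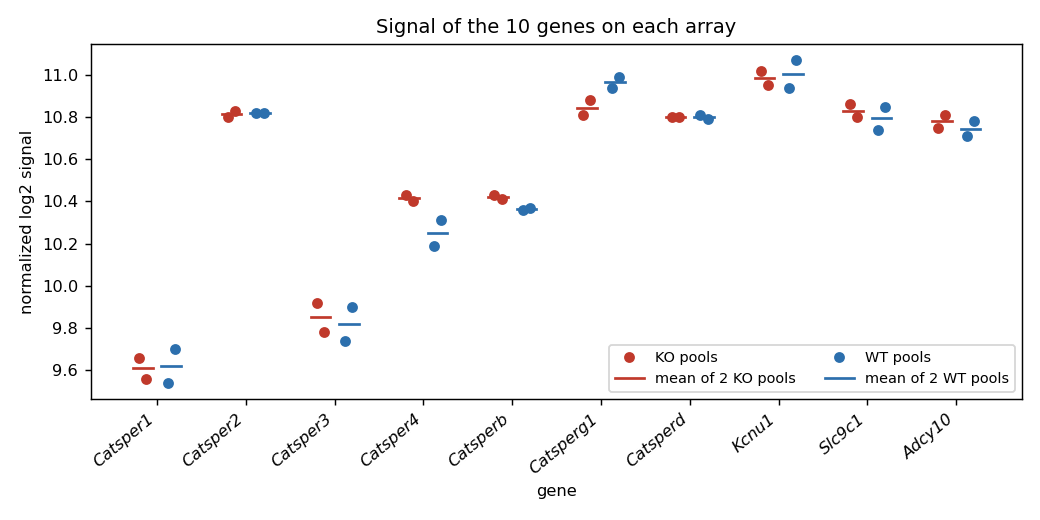
Normalized log2 signal (y axis) of the 10 genes (x axis) on each array. Red points are the 2 KO pools and blue points the 2 WT pools, with short lines at the mean of each genotype. The KO and WT points are apart for Catsper4, Catsperb and Catsperg1 and overlap for the other 7 genes.

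The 4 genes of the channel pore gave differences between -0.0096 and 0.17. Catsper1 (chr19:5335615-5344281 on GRCm38.p6) encodes a pore subunit whose long amino terminus is rich in histidine. Its log2 signal was 9.66 and 9.56 in KO testes, against 9.54 and 9.70 in WT testes. The KO values lay between the WT values, and the difference was -0.0096 (SE 0.0781, 95% confidence interval -0.21 to 0.19). Catsper2 (chr2:121391633-121414598) had 10.80 and 10.83 in KO testes, against 10.82 and 10.82 in WT testes. All 4 arrays were nearly level, and the difference was -0.0035 (SE 0.0478, 95% confidence interval -0.13 to 0.12). For Catsper3 (chr13:55784500-55824048), the signal was 9.92 and 9.78 in KO testes, against 9.74 and 9.90 in WT testes. The ranges overlapped over most of their length, and the difference was 0.03 (SE 0.0837, 95% confidence interval -0.19 to 0.24), less than the gap between pools in either genotype.

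Catsper4 (chr4:134211965-134227431) was the pore gene whose genotypes stood apart. Its signal was 10.43 and 10.40 in KO testes, against 10.19 and 10.31 in WT testes. Both KO pools were above both WT pools, and WT pool 1 was the lowest. The means were 10.42 ± 0.0209 in KO testes and 10.25 ± 0.0844 in WT testes (SD, n = 2 pools each). The difference of 0.17 (SE 0.0612, 95% confidence interval 0.01 to 0.32) was a fold of 1.12 and larger than the gap between pools, which was 0.03 in KO and 0.12 in WT. Its unadjusted p was 0.0428 and its adjusted p was 1 in the limma fit, so that it did not pass over all probe sets. With 1 pool left out, the difference was 0.15 without KO pool 1, 0.18 without KO pool 2, 0.11 without WT pool 1 and 0.23 without WT pool 2. The unadjusted p from limma in the same order was 0.139, 0.0905, 0.191 and 0.0277. In these fits the lone pool is assumed to vary like the pools of the other genotype, with 1 residual degree of freedom, so the p-values say little about the stability of the difference.

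Catsper4 is the 1 gene of the 10 that shares a chromosome with Azin2 (chr4:128930233-128962456), from which it lies 5.25 Mb away, whereas the other 9 are on other chromosomes. Among the 503 other genes within 20 Mb of Azin2, Catsper4 included, 47 (9.34%) had an unadjusted p under 0.05 and 129 (25.6%) had both KO pools above both WT pools. Among the 18286 genes elsewhere with a known position, these were 693 (3.79%) and 3681 (20.1%). The part of this position in the Catsper4 value was not tested.

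The auxiliary subunits gave differences of either sign. Catsperb (chr12:101404645-101626009) encodes the β subunit, a transmembrane protein with a large extracellular part. Its signal was 10.43 and 10.41 in KO testes, against 10.36 and 10.37 in WT testes. Both KO pools were above both WT pools by a small margin, with means of 10.42 ± 0.0163 in KO testes and 10.37 ± 0.00558 in WT testes (SD, n = 2 pools each). The difference was 0.05 (SE 0.0478, 95% confidence interval -0.07 to 0.17), with an unadjusted p of 0.344 in the limma fit. Catsperd (chr17:56626911-56664456), the gene of the δ subunit, had 10.80 and 10.80 in KO testes, against 10.81 and 10.79 in WT testes. The KO pools lay between the WT pools, and the difference was 0.0039 (SE 0.0477, 95% confidence interval -0.12 to 0.13).

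Catsperg1 (chr7:29181532-29215589), a gene of the γ subunit, was the lowest of the 10 in its difference. Its signal was 10.81 and 10.88 in KO testes, against 10.94 and 10.99 in WT testes. Both KO pools were below both WT pools, with means of 10.84 ± 0.0487 in KO testes and 10.96 ± 0.0357 in WT testes (SD, n = 2 pools each). The difference was -0.12 (SE 0.0544, 95% confidence interval -0.26 to 0.02), a fold of 0.919, with an unadjusted p of 0.0762 in the limma fit. The mouse has a second, closely related gene, Catsperg2, and the array has 1 probe set shared by both, on which their signals cannot be told apart. The shared probe set was the brighter on every array, and was not used for the value of Catsperg1 because it does not separate the genes. It gave 11.00 and 10.99 in KO testes, against 11.06 and 11.07 in WT testes. Again both KO pools were below both WT pools, with a difference of -0.07 (SE 0.0473, 95% confidence interval -0.19 to 0.05) and an unadjusted p of 0.194 from limma.

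The counts of separated genes were read against all genes. Both KO pools were above both WT pools for 2 of the 10 genes, Catsper4 and Catsperb, and for 20.3% of all genes. Both were below for 1 of the 10, Catsperg1, and for 12.2% of all genes. In 3 of the 10 the difference was larger than the gap between pools in each genotype, against 21% of all genes. These shares are near those of the array as a whole.

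The 3 genes that set the membrane potential, pH and cAMP of sperm overlapped between genotypes. Kcnu1 (chr8:25848627-25937943), the gene of the SLO3 potassium channel, had a signal of 11.02 and 10.95 in KO testes, against 10.94 and 11.07 in WT testes. The KO values lay between the WT values, with a difference of -0.02 (SE 0.0648, 95% confidence interval -0.19 to 0.15). Slc9c1 (chr16:45535266-45607001), the gene of the sperm sodium/proton exchanger, had 10.86 and 10.80 in KO testes, against 10.74 and 10.85 in WT testes. KO pool 1 and WT pool 2 were nearly level, and the difference was 0.03 (SE 0.0619, 95% confidence interval -0.13 to 0.19). Adcy10 (chr1:165483518-165576778), the gene of the soluble adenylyl cyclase, had 10.75 and 10.81 in KO testes, against 10.71 and 10.78 in WT testes. The ranges overlapped, and the difference was 0.03 (SE 0.0544, 95% confidence interval -0.11 to 0.17).

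Several of the genes varied between pools of one genotype together. KO pool 1 and WT pool 2 were above, and KO pool 2 and WT pool 1 below, the gene's own mean for Catsper1, Catsper3, Kcnu1 and Slc9c1, 4 of the 10 (40%), a grouping seen only after the values. It was met by 12.9% of all genes. The same pattern was found in 2 of the 7 other CatSper complex genes and in 2 of the 7 spermatid markers. In the other lists described below, it was found in 2 of the 10 measured genes of potassium, proton and pH handling. It was found in 2 of the 8 cAMP genes and 1 of the 3 pump genes. It was found in 0 of the 6 spermatocyte and 0 of the 6 spermatogonia markers, and in 0 of the markers of macrophages, Sertoli, Leydig, endothelial and peritubular myoid cells and of epididymis. At a share of 12.9%, a list this short can hold 0 such genes, and the counts of 1 or 2 rest on as few genes. No single list therefore sets a contrast, and none was tested against that share. WT pool 1 was the lowest array for 7 of the 10 genes. The share of all genes for which it was the lowest was not counted, so this is not read as a trait of the 10. On average the 10 genes deviated from their own means by 0.02 in KO pool 1, -0.0051 in KO pool 2, -0.05 in WT pool 1 and 0.03 in WT pool 2. In the same order the spermatid markers deviated by 0.0023, -0.0084, -0.01 and 0.02, the spermatocyte markers by 0.07, -0.02, -0.02 and -0.02, and the Leydig cell markers by -0.17, 0.10, 0.08 and -0.01. The part of the cell makeup of the pools in this variation was not tested.

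**Figure D3:**
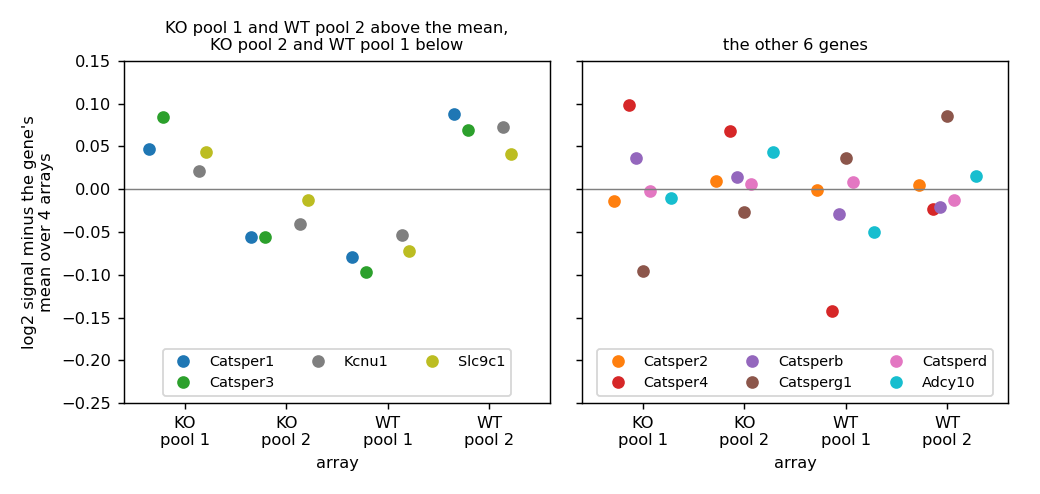
Log2 signal of each gene minus its own mean over the 4 arrays (y axis), for each array (x axis). Points are genes, with the 4 genes that were above their mean in KO pool 1 and WT pool 2 and below it in the other arrays on the left, and the other 6 on the right. Most of the points of WT pool 1 lie below 0, that of Catsper4 lowest.

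Other genes of the same machinery were examined in 4 lists, and none of their measured genes rose or fell at an adjusted p under 0.05 or had an unadjusted p under 0.05 in the limma fit. Of 10 other CatSper complex genes, 7 had a value, with a median difference of -0.0014 and 3 above 0. They ran from -0.07 for Catspere2, a gene of the ε subunit, to 0.07 for Tmem262. Catspere2 had 10.62 and 10.63 in KO testes, against 10.66 and 10.73 in WT testes, and both KO pools were the lower. Tmem262 had 7.46 and 7.48 in KO testes, against 7.35 and 7.44 in WT testes, with both KO pools the higher. The next in each direction were C2cd6 at -0.03, a gene needed to place the channel in the tail, and Slco6c1 at 0.02, a transporter of the complex.

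Of 12 genes of potassium, proton and pH handling, 10 had a value, with a median of -0.0027 and 5 above 0. Cftr, the chloride and bicarbonate channel, had 8.13 and 8.07 in KO testes, against 8.14 and 8.35 in WT testes (difference -0.14). Car4, a membrane-bound carbonic anhydrase, had 7.59 and 7.00 in KO testes, against 6.89 and 7.39 in WT testes (difference 0.15). The Car4 ranges overlapped widely and the Cftr ranges did not overlap, though KO pool 1 and WT pool 1 were almost level. Slc26a3, an anion exchanger near the low end of the signal, had 4.41 and 4.47 in KO testes, against 4.25 and 4.35 in WT testes (difference 0.14). Car2, a cytosolic carbonic anhydrase, differed by -0.09.

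All 8 measured genes of the 10 in the cAMP list lay below 0, by small amounts, from -0.10 to -0.02, with a median of -0.04, while 8166 of the 18820 genes lay below 0. All 8 did so after both other normalizations too, 7 of the 8 with the mean over the probe sets of a gene, and 5 to 7 with 1 array left out. A shared sign was not particular to this list. The 5 Leydig cell, 4 macrophage and 3 endothelial markers measured were all below 0. The 6 spermatocyte and 3 peritubular myoid markers were all above 0, and the other marker lists held both signs. Pde4d, a cAMP phosphodiesterase, had 7.31 and 7.02 in KO testes, against 7.23 and 7.31 in WT testes. Rapgef3, a cAMP-activated exchange factor, had 6.16 and 6.20 in KO testes, against 6.21 and 6.34 in WT testes. The Pde4d ranges overlapped, and the Rapgef3 ranges nearly touched. Among the 3 pump genes, Atp1a4, the sodium pump subunit of sperm, had 11.72 and 11.66 in KO testes, against 11.77 and 11.80 in WT testes (difference -0.09). Atp1b3 and Atp2b4, a sodium pump β subunit and the plasma membrane calcium pump of sperm, differed by -0.04 and 0.0052. Catspere1, Tmem249, Slc9c2, Catsperg2, Hvcn1, Adcy3 and Prkaca had no value of their own, the last 4 because their probe sets are shared with other genes.

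**Figure D4:**
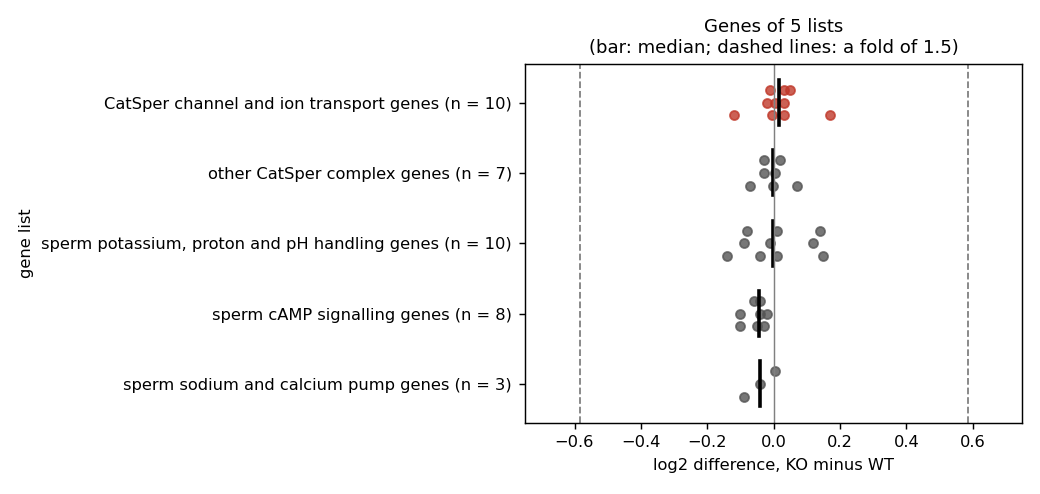
Log2 difference between KO and WT testes (x axis) for the genes of 5 lists (y axis). Points are genes, red for the 10 genes described and grey for the other lists, and black bars are medians. The dashed lines mark a fold of 1.5, which no gene of the 5 lists reached.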

How the data were processed

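RNA of whole testes was hybridized to 4 arrays, 2 of KO and 2 of WT pools. The labels name a 3′ IVT labelling kit, whereas the paper's methods describe amplified cDNA on this whole-transcript array. Which was used is not settled by these sources, and it bears on which part of a transcript the probes could read. The authors deposited normalized log2 signals per probe set, and the submitters' processing notes name RMA and Partek 6.13.1224. RMA puts the probe intensities of all arrays on one distribution, so differences are relative to the genes as a whole. The deposited probe set values were close to one distribution but not the same, with array medians from 6.08 to 6.11. The genome build of the array annotation is not given in the sources used here. Of 35556 probe sets, 23099 had a gene in the platform annotation and 21218 had 1 symbol. The highest-mean probe set with 1 symbol gave a gene's value (18820 genes). The genotypes were compared with lmFit and eBayes of limma 3.58.1 (R 4.3.3) over all 4 arrays, with no filter. The fit was also run on simulated data with independent noise drawn from its own variances. Such data cannot show how the fit handles genes that vary together between pools. Intervals are at 95%. The text names all 10 genes, Azin2 and up to 2 genes with the largest difference in each direction of each list. The 10 genes and the lists were chosen with earlier results of these data known. Alternatives were an intensity trend, the methods' t-test, 2 normalizations, the brighter probe sets alone, the whole table, the mean over probe sets, a replicate block, each array left out and a fold of 1.2. Promoters are from RefSeq (GRCm38.p6).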

Additional observations from a re-analysis of the deposited data

How the results depend on the processing

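No alternative brought any of the 10 genes to an adjusted p under 0.05, from limma or the ordinary test. None brought any of them past the study's thresholds, with a fold of 1.2 included. The 4 lists gave 0 calls under the alternatives run on them. With the ordinary test and with every probe set of the table, 0 of all probe sets passed that adjusted p, so Azin2 was lost too. At that threshold these 2 settings say nothing about the 10 genes. The fits with 1 array left out hold a lone pool and decide little. The count of the 10 at an unadjusted p under 0.05 was 1, and it was 2 with an intensity trend (Catsper4 and Catsperg1), 0 with the ordinary test, 0 with every probe set of the table, 0 with the replicate block, and 0 to 1 with 1 array left out. The replicate block stands apart from the design, since same-numbered arrays did not deviate together (r = -0.08 over 23099 probe sets). Each number holds 1 KO and 1 WT array, so the block cannot change a difference, and the median of the 10 genes stayed at 0.02. That median was 0.0084 after quantile normalization, 0.03 after centring, and -0.02 (without WT pool 1) to 0.06 (without WT pool 2) with 1 array left out. Apart from leaving out arrays, 78 of 80 values of single genes kept their sign. Among these settings only the 2 normalizations could change a difference of the 10 genes, so under the others the sign was fixed in advance. The values that turned were those of Catsper2 (0.0059 after centring) and Catsperd (-0.0053 after quantile normalization). With 1 array left out, 10 of 40 values turned, all for genes near 0. The ranges were -0.09 to 0.07 for Catsper1, -0.02 to 0.0084 for Catsper2, -0.05 to 0.11 for Catsper3, -0.0065 to 0.01 for Catsperd, -0.08 to 0.04 for Kcnu1 and -0.03 to 0.09 for Slc9c1. Catsper4 stayed at 0.11 to 0.23, Catsperb at 0.04 to 0.06, Catsperg1 at -0.16 to -0.09 and Adcy10 at 0.00016 to 0.07. With 2 pools a genotype, the intervals of the 10 genes reached from 0.834-fold to 1.25-fold, and differences inside them are not settled. Groups this small allow no check for a pool that stands apart.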
